A study of Mus musculus with 8 samples.

Results

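Solute carriers for glucose, amino acids, monocarboxylates, neurotransmitters and organic anions were examined in endothelial cells of the mouse brain. The members were taken by gene symbol, as every listed gene of the families Slc1, Slc2, Slc3, Slc6, Slc7, Slc16, Slc38, Slc43 and Slco. This gave 101 of the 24394 symbols shared by all libraries. Of the 101, 3 match the symbols without being carriers (Slc7a6os, Slc6a19os and Slc2a4rg-ps), and 98 are carrier genes. The cells were sorted by flow cytometry at postnatal day 8. The series holds 4 libraries labelled wild type (WT) and 4 libraries labelled YAPTAZ-ECKO, all of strain C57BL/6J. The YAPTAZ-ECKO genotype is given as Yapf/f and Tazf/f with VE-cadherin-CreERT2: an endothelial promoter drives a Cre recombinase that tamoxifen activates, and the floxed genes encode YAP (Yap1) and TAZ (Wwtr1), co-activators of the Hippo pathway. The labels state no tamoxifen dose, no Cre-only control, and not how many mice gave the libraries. Effects of Cre, of floxing and of any treatment therefore cannot be told apart from the deletion, and p-values measure the spread between these libraries, which may be technical.

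Brain endothelium is sealed by tight junctions, so polar nutrients reach the brain through carriers in its luminal and abluminal membranes. Glucose enters by facilitated diffusion, large neutral amino acids by exchange through a light chain paired with the heavy chain Slc3a2, lactate and ketone bodies through members of Slc16, and organic anions through members of Slco. Sodium-coupled members of Slc1 and Slc38 move amino acids against their gradient and are known on the abluminal side. The design asks which of these transcripts differ when YAP and TAZ are deleted in endothelial cells.

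Values are read counts scaled by the authors to a common library size and called scaled reads here. The depth implied by the spacing of low values ran from 6.76 M reads (YAPTAZ-ECKO 1) to 16.8 M reads (WT 1). Both targeted genes were lower in YAPTAZ-ECKO, Wwtr1 at 1335 ± 939 against 6633 ± 1159 scaled reads and Yap1 at 327 ± 248 against 1964 ± 613 (SD, n = 4 each). Wwtr1 passed the test (limma adjusted p = 0.0113), and Yap1 did not (limma adjusted p = 0.175). All 10 endothelial markers had enough signal to be tested, and their sum was 86947 to 104703 scaled reads in WT and 83505 to 112980 in YAPTAZ-ECKO. Over all 8706 genes tested with limma, 3 genes (0.0345%) passed an adjusted p of 0.05. Marker sums of other cell types overlapped between groups: mural 116 to 1566 in WT and 3.13 to 1227 in YAPTAZ-ECKO, microglia 161 to 1043 and 1.51 to 330, neuron 5.97 to 347 and 17.6 to 1896, erythroid 8937 to 25046 and 9039 to 30022, and choroid plexus 0 to 4825 and 7.08 to 1666 scaled reads. For 3 globin symbols the tables repeat another globin symbol's values, and each repeated set was counted once. All 4 tested mural markers had lower and all 4 tested erythroid value sets had higher fitted values in YAPTAZ-ECKO, none past the test; their part in the values below was not tested. In bulk libraries, fewer cells of a type and less RNA per cell cannot be told apart.

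At least 1 library had a value above 0 for 63 of the 101 members (62.4%, against 53.0% of all 24394 symbols). The other 38 were listed at 0 throughout. They include Slc2a3, the main glucose carrier of neurons, the monocarboxylate carriers Slc16a3, Slc16a7 and Slc16a8, and the glycine carriers Slc6a5 and Slc6a9. Of the 63, 24 were above 0 in all 8 libraries, 29 in 2 to 7 libraries and 10 in a single library. By family, 5 of 7 Slc1, 8 of 13 Slc2, 2 of 2 Slc3, 7 of 20 Slc6, 11 of 16 Slc7, 9 of 14 Slc16, 8 of 11 Slc38, 3 of 3 Slc43 and 10 of 15 Slco members were above 0. A listed 0 is the value in the table and not evidence of absence, since 23 members reached 100 scaled reads in some library while listed at 0 in at least 2 others.

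The number of members above 0 was 48, 42, 48 and 37 in WT 1 to 4 and 32, 41, 39 and 37 in YAPTAZ-ECKO 1 to 4. The groups overlapped (43.75 ± 5.32 against 37.25 ± 3.86, SD, n = 4 each; two-sided exact permutation p = 0.143). Lower numbers in YAPTAZ-ECKO were not particular to the members. Of all symbols, 9720, 9325, 9700 and 8621 were above 0 in WT 1 to 4. In YAPTAZ-ECKO 1 to 4 it was 7538, 8762, 8643 and 8408. The lowest number came from the library with the lowest implied depth, YAPTAZ-ECKO 1, and the deepest library, WT 1, shared the highest; the part of depth in these numbers was not tested. Among the 63 members, 11 (17.5%) were above 0 in WT libraries alone and 6 (9.52%) in YAPTAZ-ECKO libraries alone. The same shares over all symbols above 0 were 11.7% and 6.92%. The 3 members above 0 in at least 3 WT libraries and in no YAPTAZ-ECKO library were Slc7a11, Slco1a1 and Slc2a8. They are described with their families, and 184 of the 12938 symbols above 0 had this pattern.

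**Figure D1:**
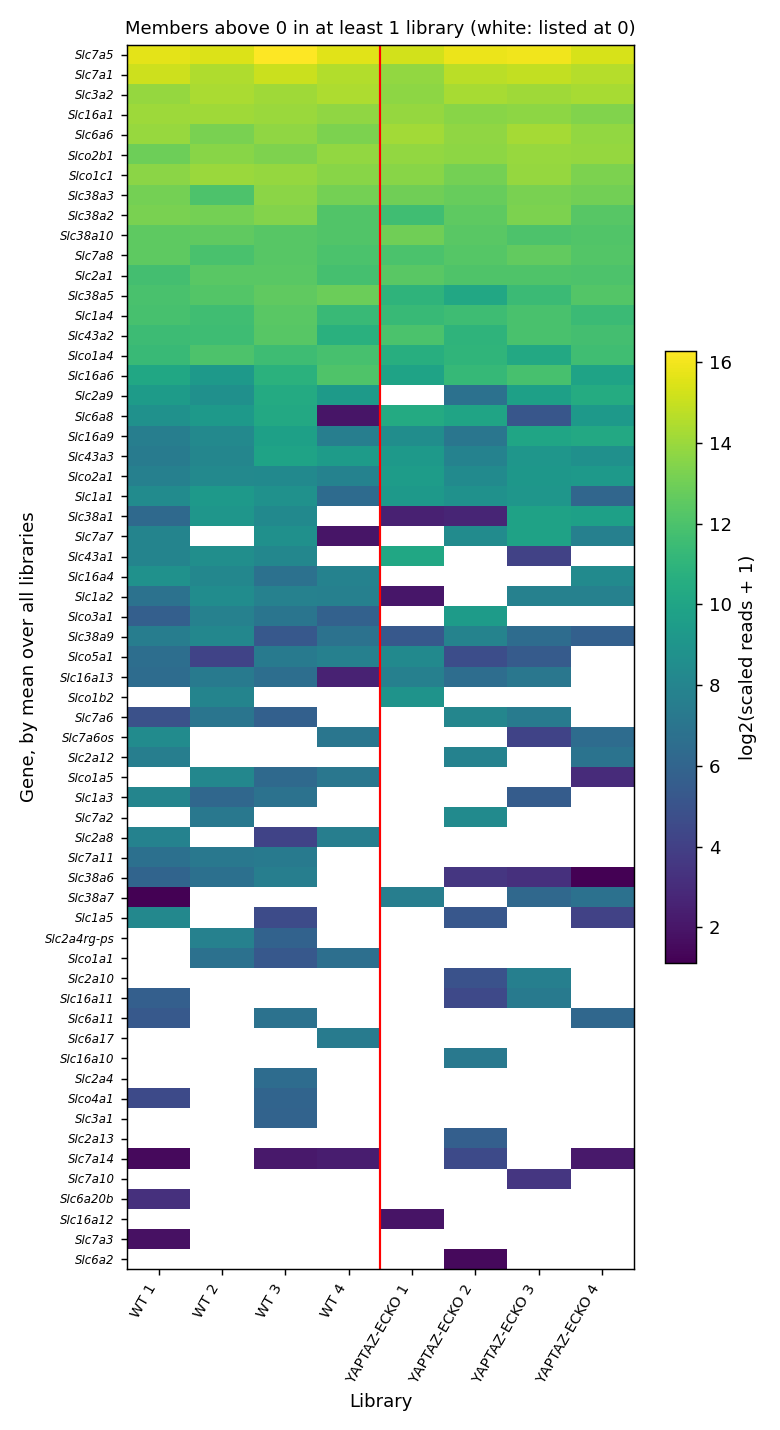
Level of 61 members above 0, as log2(scaled reads + 1) by colour, with 1 row per gene in order of the mean and 1 column per library; white cells are listed at 0 and the line separates WT from YAPTAZ-ECKO. The upper rows are filled in all 8 libraries, and the lower rows are scattered over single libraries of both groups.

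A few genes carried most of the signal. The 10 most abundant members held 82.8% to 86.6% of the summed level of all members in every library. All members together made up 1.79% to 2.37% of a WT library and 1.68% to 2.23% of a YAPTAZ-ECKO library. To compare genes, levels were divided by the length of the longest annotated transcript. Per kb, Slc7a5 stood first in WT at 16216 ± 4303 scaled reads per kb, followed by Slc3a2 at 6718 ± 1182, Slco1c1 at 4454 ± 609, Slc7a1 at 4037 ± 954 and Slc16a1 at 3652 ± 377 (SD, n = 4 each). Slc7a5 and Slc3a2 did not overlap in either group. From Slco1c1 downward to Slc43a2, each member overlapped the next in WT, so the order within that stretch is not settled by these libraries. The first 4 places were the same in YAPTAZ-ECKO. Slc38a5 stood at place 6 in WT and 10 in YAPTAZ-ECKO, and Slco2b1 at place 8 in WT and 5 in YAPTAZ-ECKO. The glucose carrier Slc2a1 stood at place 11 in WT and 9 in YAPTAZ-ECKO. It is not stated which part of a transcript the reads cover. If they come from an end alone, division by length would mislead, and the order without it would be the one to read. Without division by length, all 10 of the highest members in WT stayed among the 10 highest, in another order. Slc7a1 then stood at place 2, Slc3a2 at 3, Slc16a1 at 4, Slco1c1 at 5, Slc38a5 at 10 and Slc2a1 at 13 in WT.

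**Figure D2:**
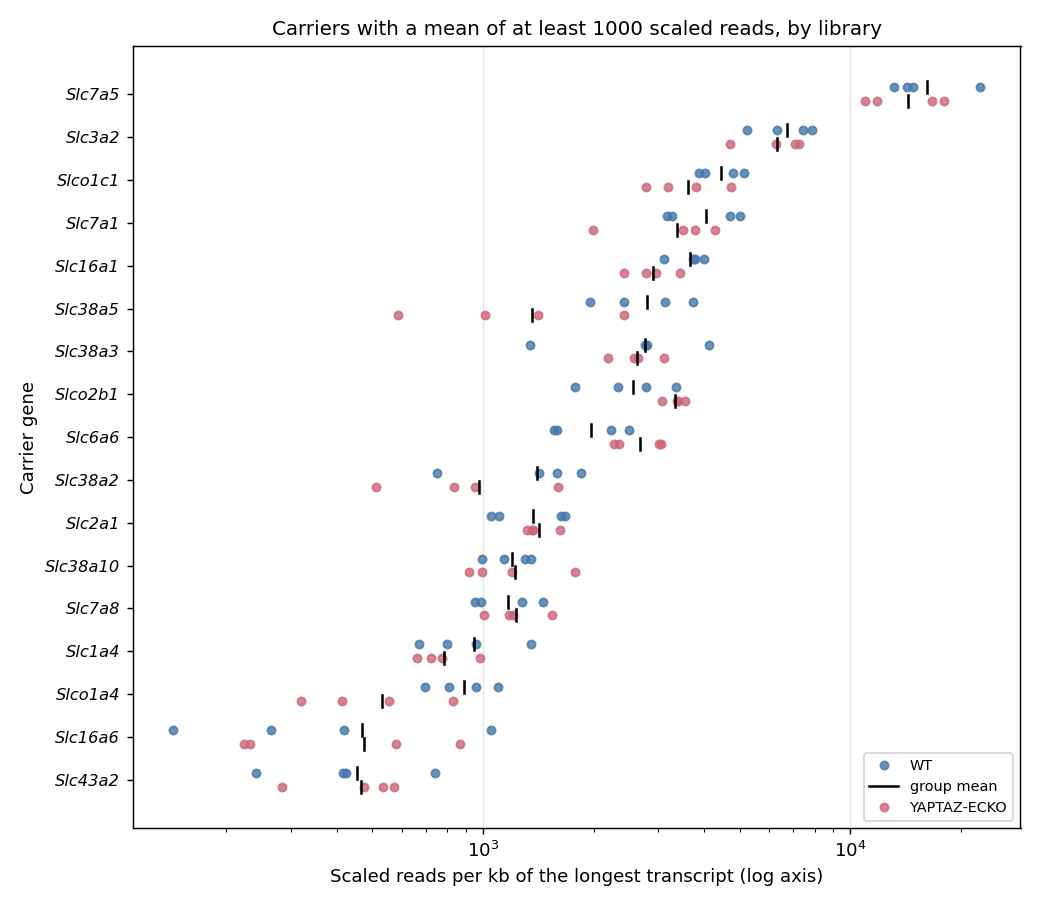
Scaled reads per kb of the longest transcript on a log axis for 17 members that average 1000 scaled reads or more; points are libraries (4 WT, 4 YAPTAZ-ECKO) and ticks are group means. Slc7a5 lies to the right of all other genes, and the points of Slc38a5 and Slco1a4 lie further left in YAPTAZ-ECKO than in WT, with overlap.

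The test was run on 38 members, those with 4 or more libraries reaching 10 scaled reads. None passed (0 of 38, against 0.0345% of all genes tested), and the smallest limma adjusted p was 0.675. At an unadjusted p under 0.05 there were 2 members, Slc38a5 and Slco1a4, both lower in YAPTAZ-ECKO, or 2 of 38 against 5.47% of all genes tested (3.69% for lower values alone; none was higher, against 1.78%). The groups did not overlap for 1 member, Slco2a1, against 3.40% of all genes tested (1.33% for higher values alone; none was lower, against 2.07%). A log2 difference above 1 in size was found for Slc38a5 and Slc16a4, or 2 of 38 against 7.94% of all genes tested. These counts are at or near the background. Higher values in YAPTAZ-ECKO were found for 16 and lower values for 22 of the 38 (57.9% lower, against 56.9% of all genes tested). The median log2 difference was -0.13 over the members and -0.089 over all genes tested. Of the 18 members averaging 1000 scaled reads or more, 8 were higher and 10 lower (median -0.048, against -0.041 for all 1935 genes at that level). Log2 differences are on the log2(scaled reads + 128) scale, which understates the change of low genes. The half-width of a member's 95% interval had a median of 0.61 log2 units for these 18, and 0.82 over all 38.

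**Figure D3:**
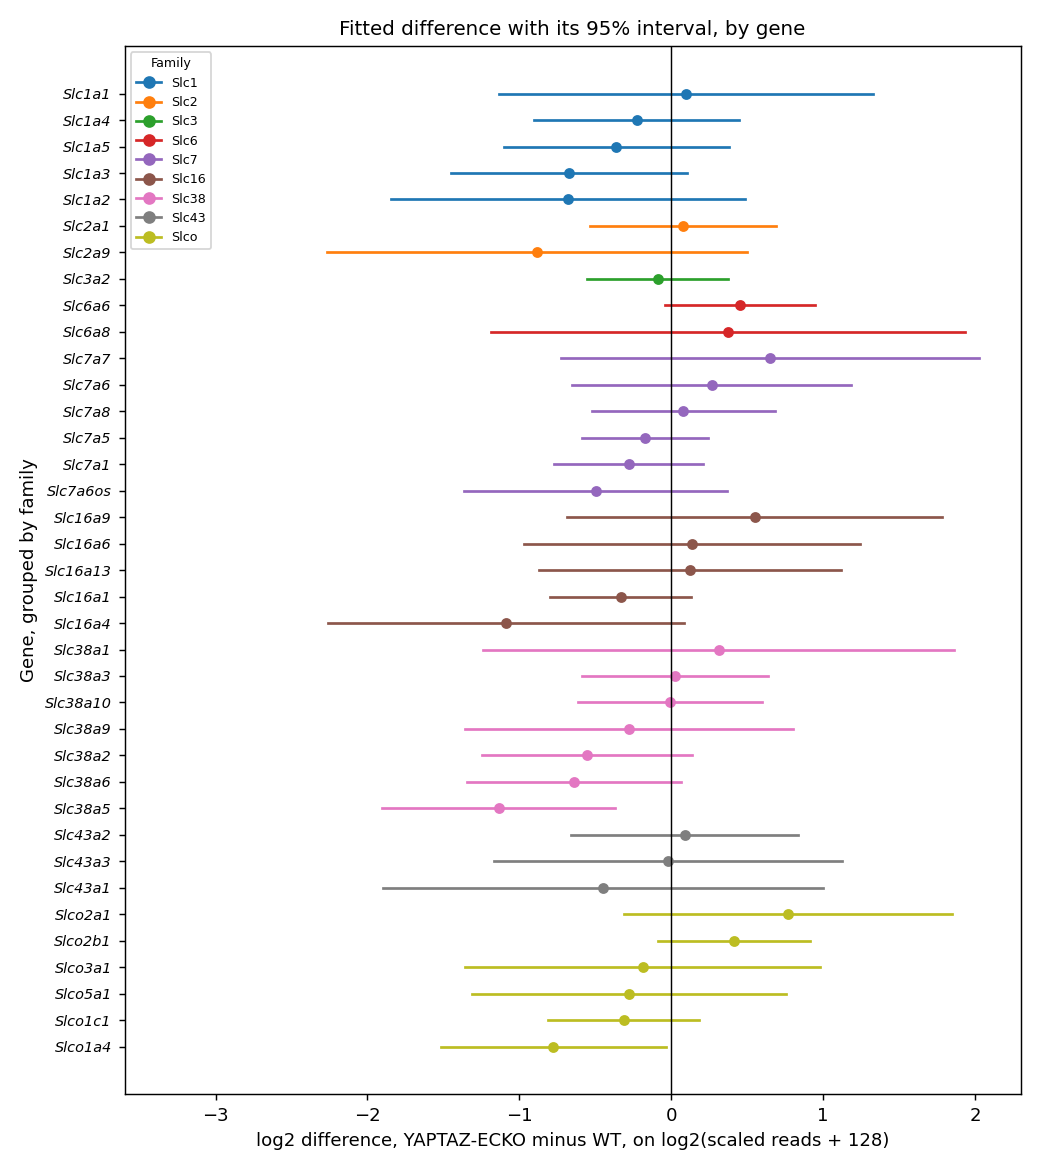
Fitted log2 difference (YAPTAZ-ECKO minus WT, on log2(scaled reads + 128)) as points with 95% limma intervals as lines, for 37 of the members tested, coloured by family. The intervals of Slc38a5 (-1.90 to -0.37) and Slco1a4 (-1.52 to -0.035) lie below 0 before adjustment, and all other intervals shown include 0.

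Slc7 light chains and cationic amino acid carriers, with the Slc3 heavy chain, were the most abundant group, and no member passed the test. Slc7a5 encodes LAT1, the light chain that exchanges large neutral amino acids such as leucine and carries the drug levodopa. It stood at 52281, 46181, 79408 and 50256 scaled reads in WT 1 to 4 and at 38672, 58779, 63172 and 41476 in YAPTAZ-ECKO 1 to 4. The groups overlapped widely, with the highest value in WT 3 and the lowest in YAPTAZ-ECKO 1. The log2 difference was -0.17 ± 0.20 (SE), with a 95% interval of -0.59 to 0.24 (limma adjusted p = 0.990). Slc3a2 encodes the heavy chain (CD98) that brings LAT1 to the membrane. It stood at 14756, 20868, 17768 and 22196 scaled reads in WT 1 to 4 and at 13271, 20340, 17670 and 19852 in YAPTAZ-ECKO 1 to 4, a log2 difference of -0.089 ± 0.23 (SE; interval -0.55 to 0.38). The ratio of Slc7a5 to Slc3a2, both per kb, was 2.50 ± 0.87 in WT and 2.29 ± 0.49 in YAPTAZ-ECKO (SD, n = 4 each). It spread more between libraries of a group (1.77 to 3.57 in WT) than between the group means.

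Slc7a1, the main carrier of arginine and lysine, stood at 35908, 22788, 33806 and 23413 scaled reads in WT 1 to 4 and at 14293, 27044, 30659 and 25110 in YAPTAZ-ECKO 1 to 4. YAPTAZ-ECKO 1 lay below all other libraries, and the remaining values overlapped (log2 difference -0.28 ± 0.24, SE; interval -0.77 to 0.21). Slc7a8, the light chain LAT2, stood at 4774 ± 978 scaled reads in WT and 5034 ± 913 in YAPTAZ-ECKO (SD, n = 4 each; interval -0.52 to 0.68). The other 2 light chains tested were sparse. Slc7a7 was listed at 0 in WT 2 and YAPTAZ-ECKO 1 and reached 908 scaled reads in YAPTAZ-ECKO 3. Slc7a6 was listed at 0 in WT 4, YAPTAZ-ECKO 1 and YAPTAZ-ECKO 4 and reached 272 in YAPTAZ-ECKO 2. Slc7a11, the light chain that exchanges cystine for glutamate, stood at 106, 145 and 155 scaled reads in WT 1 to 3 and was listed at 0 in WT 4 and in all 4 YAPTAZ-ECKO libraries. With 3 libraries above 0 it was not tested. Slc7a2, a second arginine carrier, was above 0 in 1 library of each group, at 143 in WT 2 and 327 in YAPTAZ-ECKO 2. Slc7a6os, which is no carrier, stood at 341 and 135 in WT 1 and WT 4, at 16.9 and 86.2 in YAPTAZ-ECKO 3 and YAPTAZ-ECKO 4, and at 0 in the other libraries. The remaining Slc7 members above 0 (Slc7a3, Slc7a10 and Slc7a14) stayed at or under 22.3 scaled reads. Slc3a1, the other heavy chain, was above 0 in WT 3 alone, at 60.1.

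Slc38 members carry neutral amino acids with sodium, and Slc38a5 had the smallest unadjusted p of all members tested in this fit. Slc38a5 encodes SNAT5, a carrier of glutamine, histidine, serine and glycine, on chromosome X from 8271133 to 8280179, plus strand (GRCm38). It stood at 3875, 4797, 6191 and 7378 scaled reads in WT 1 to 4 and at 2003, 1167, 2807 and 4814 in YAPTAZ-ECKO 1 to 4. YAPTAZ-ECKO 4 lay above WT 1 and WT 2, and the other 3 YAPTAZ-ECKO libraries lay below all of WT. The means were 5560 ± 1541 scaled reads in WT and 2698 ± 1562 in YAPTAZ-ECKO (SD, n = 4 each), and the log2 difference was -1.14 ± 0.37 (SE; interval -1.90 to -0.37). The unadjusted limma p was 0.00524 and the limma adjusted p 0.675, so the difference did not pass over all genes, and the two-sided exact permutation p was 0.0857. The sign was kept under all 20 alternatives, with differences of -1.46 to -0.82 and adjusted p of 0.370 to 0.993. Without YAPTAZ-ECKO 4, the only library of its group to overlap WT, the groups did not overlap, which follows by construction.

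Slc38a3, a glutamine carrier known from brain endothelium as SNAT3, stood at 8804, 4238, 12971 and 8701 scaled reads in WT 1 to 4 and at 8102, 6884, 9776 and 8312 in YAPTAZ-ECKO 1 to 4. All YAPTAZ-ECKO values lay within the WT range (log2 difference 0.024 ± 0.30, SE; interval -0.59 to 0.64). Per kb, Slc38a5 stood at 0.70 to 1.80 times Slc38a3 in the WT libraries and at 0.27 to 0.92 times in the YAPTAZ-ECKO libraries, with overlap. Without division by length, it stood at 0.44 to 1.13 times and 0.17 to 0.58 times. Slc38a2, the amino acid carrier that starvation is known to induce, stood at 8574 ± 2870 scaled reads in WT and 5969 ± 2807 in YAPTAZ-ECKO (SD, n = 4 each; log2 difference -0.55 ± 0.34, SE; interval -1.25 to 0.14). Its highest YAPTAZ-ECKO value (9817, YAPTAZ-ECKO 3) exceeded 3 of the 4 WT values. Slc38a10 stood at 5483 ± 741 and 5606 ± 1791 (SD, n = 4 each; interval -0.61 to 0.60).

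The other Slc38 members were low and uneven. Slc38a1 ranged from 0 to 533 scaled reads in WT and from 4.67 to 933 in YAPTAZ-ECKO. Slc38a9, a lysosomal sensor of arginine, ranged from 38.1 to 279 in WT and from 38.6 to 233 in YAPTAZ-ECKO. Slc38a6 stood at 62.1, 106, 196 and 0 in WT 1 to 4 and at 0, 10.6, 8.41 and 1.17 in YAPTAZ-ECKO 1 to 4, so it was higher in 3 WT libraries than in any YAPTAZ-ECKO library, with WT 4 at 0. Its log2 difference was -0.64 ± 0.34 (SE; interval -1.34 to 0.063). Slc38a7 showed the opposite arrangement, at 195, 76.0 and 109 in YAPTAZ-ECKO 1, 3 and 4 at 0 in YAPTAZ-ECKO 2 and at 0 to 1.19 in WT, and was not tested. The summed level of the Slc38 family was 28773 ± 5272 scaled reads in WT and 23192 ± 3459 in YAPTAZ-ECKO (SD, n = 4 each).

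Slc1 members carry glutamate (Slc1a1, Slc1a2 and Slc1a3) or small neutral amino acids (Slc1a4 and Slc1a5). Slc1a4, which carries alanine, serine and cysteine, led the family at 3769, 3124, 5297 and 2636 scaled reads in WT 1 to 4 and 2592, 3032, 3851 and 2843 in YAPTAZ-ECKO 1 to 4. The groups overlapped (log2 difference -0.23 ± 0.33, SE; interval -0.90 to 0.45). Slc1a1 ranged from 84.6 to 646 scaled reads in WT and from 67.8 to 642 in YAPTAZ-ECKO. Slc1a5, a glutamine carrier, stood at 297 in WT 1 and at or under 36.3 in the other libraries. The glutamate carriers Slc1a2 and Slc1a3 are textbook genes of astrocytes. Slc1a2 stood at 111, 355, 218 and 207 scaled reads in WT 1 to 4 and at 3.14, 0, 218 and 221 in YAPTAZ-ECKO 1 to 4. Slc1a3 stood at 258, 70.2, 113 and 0 in WT and was above 0 in YAPTAZ-ECKO 3 alone, at 46.0. Beside these values, the sum of 8 astrocyte markers was 1476 to 1793 scaled reads in WT and 494 to 1906 in YAPTAZ-ECKO. The 3 of these with enough signal to be tested were Gja1, Sox9 and Slc4a4, which are not restricted to astrocytes. Aldh1l1 was at 0 throughout, Gfap reached 1.82 in WT 1, and Aqp4 was above 0 in YAPTAZ-ECKO 3 alone, at 123. Fabp7 stood at 62.7, 67.3, 45.9 and 0 in WT 1 to 4 and at 0 in all of YAPTAZ-ECKO. Aldoc was above 0 in WT 2 alone, at 139. Their part in the values of Slc1a2 and Slc1a3 was not tested.

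Slc6 members use sodium and chloride and include the carriers of most neurotransmitters. Slc6a6, the taurine carrier, was the abundant member, at 15457, 9628, 13796 and 9851 scaled reads in WT 1 to 4 and 18677, 14106, 18925 and 14502 in YAPTAZ-ECKO 1 to 4. The 2 highest libraries were YAPTAZ-ECKO 3 and YAPTAZ-ECKO 1, and WT 1 lay above YAPTAZ-ECKO 2 and YAPTAZ-ECKO 4. The log2 difference was 0.46 ± 0.24 (SE; interval -0.038 to 0.95), with a limma adjusted p of 0.928 and a two-sided exact permutation p of 0.114. Slc6a8, the creatine carrier, ranged from 2.98 to 1229 scaled reads in WT and from 34.5 to 1330 in YAPTAZ-ECKO. Slc6a11, a GABA carrier, was above 0 in WT 1, WT 3 and YAPTAZ-ECKO 4 and reached 113 scaled reads at most. The serotonin, dopamine and glycine carriers Slc6a4, Slc6a3, Slc6a5 and Slc6a9 were listed at 0 in all libraries. The noradrenaline carrier Slc6a2 was above 0 in YAPTAZ-ECKO 2 alone, at 1.81. Slc6a17 was above 0 in WT 4 alone, at 170, and Slc6a20b in WT 1 alone, at 8.47.

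Slc43 holds carriers of large neutral amino acids (Slc43a1 and Slc43a2) and a purine base carrier (Slc43a3). Slc43a2 stood at 3251 ± 1482 scaled reads in WT and 3327 ± 912 in YAPTAZ-ECKO (SD, n = 4 each; interval -0.66 to 0.84). Slc43a3 stood at 171, 265, 950 and 695 in WT 1 to 4 and 623, 231, 531 and 426 in YAPTAZ-ECKO 1 to 4. Slc43a1 stood at 247, 395, 283 and 0 in WT 1 to 4 and at 1126, 0, 16.1 and 0 in YAPTAZ-ECKO 1 to 4. Its log2 difference of -0.45 ± 0.70 (SE) and the ratio of means (286 scaled reads in YAPTAZ-ECKO to 231 in WT) differ in sign, since YAPTAZ-ECKO 1 alone sets the mean.

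Glucose carriers of Slc2 were represented by Slc2a1, which encodes GLUT1, the main glucose carrier of the blood-brain barrier. It stood at 3437, 5327, 5461 and 3596 scaled reads in WT 1 to 4 and at 5293, 4433, 4454 and 4297 in YAPTAZ-ECKO 1 to 4. All YAPTAZ-ECKO values lay within the WT range, and the log2 difference was 0.077 ± 0.30 (SE; interval -0.54 to 0.69; limma adjusted p = 0.994). Slc2a1 held 73.8% to 100% of the summed Slc2 level in a library. Slc2a9, a urate carrier, stood at 681, 424, 1345 and 664 in WT 1 to 4 and at 0, 110, 835 and 1407 in YAPTAZ-ECKO 1 to 4 (interval -2.27 to 0.50). Slc2a8 stood at 225, 0, 17.3 and 190 in WT 1 to 4 and was listed at 0 in all of YAPTAZ-ECKO. Slc2a12 was above 0 in 3 libraries, at 117 to 228 scaled reads, and Slc2a10 in YAPTAZ-ECKO 2 and 3, at 30.1 and 205. Slc2a13 was above 0 in YAPTAZ-ECKO 2 alone, at 50.8. Slc2a4, the insulin-responsive carrier of muscle and fat, was above 0 in WT 3 alone, at 89.4. Slc2a4rg-ps, a pseudogene symbol and no carrier, was above 0 in WT 2 and WT 3, at 216 and 57.2.

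Among Slc16 members, Slc16a1 encodes MCT1, which moves lactate, pyruvate and ketone bodies with a proton. It stood at 16740, 17658, 16487 and 13777 scaled reads in WT 1 to 4 and at 15266, 12322, 13116 and 10712 in YAPTAZ-ECKO 1 to 4. WT 4 lay below YAPTAZ-ECKO 1, and all other YAPTAZ-ECKO values lay below all WT values. The means were 16165 ± 1670 in WT and 12854 ± 1893 in YAPTAZ-ECKO (SD, n = 4 each), and the log2 difference was -0.33 ± 0.23 (SE; interval -0.80 to 0.13). The limma adjusted p was 0.980 and the two-sided exact permutation p 0.0571.

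Slc16a6 ranged from 605 to 4424 scaled reads in WT and from 942 to 3658 in YAPTAZ-ECKO, a spread of more than 3-fold within each group. Its exons overlap those of Amz2 and Arsg on the other strand, and since the strand setting of the counting is not given, reads of these genes cannot be told apart here. Among tested members, exons of Slc1a1, Slc1a2, Slc2a1, Slc6a6, Slc7a7, Slc16a9, Slc38a9, Slc38a10, Slc43a2, Slco2a1 and Slco2b1 also overlap a gene on the other strand. Slc16a4, a carrier without an agreed substrate, stood at 446, 275, 107 and 227 scaled reads in WT 1 to 4. It was listed at 0 in YAPTAZ-ECKO 1 to 3 and stood at 325 in YAPTAZ-ECKO 4. The log2 difference was -1.09 ± 0.57 (SE; interval -2.26 to 0.087), and it was -5.79 with a pseudocount of 1. Without YAPTAZ-ECKO 4, the only library of its group to overlap WT, the groups of Slc16a4 did not overlap, which follows by construction. Slc16a9, a carnitine carrier, ranged from 195 to 860 in WT and from 135 to 1214 in YAPTAZ-ECKO. Slc16a13 ranged from 4.97 to 160 and from 0 to 214. Slc16a10, an aromatic amino acid carrier, was above 0 in YAPTAZ-ECKO 2 alone, at 150, and Slc16a12 in YAPTAZ-ECKO 1 alone, at 2.79. Slc16a11 was above 0 in 3 libraries, at 21.3 to 162.

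Slco members carry organic anions such as bile acids, steroid conjugates, prostaglandins and thyroid hormones. The 3 abundant members of brain endothelium were Slco1c1, Slco2b1 and Slco1a4. The 250 bases upstream of an annotated start of each are printed because these genes carry the family's level and differed in the sign of their fitted difference. They are from RefSeq (GRCm38.p6), 5′ to 3′ on the strand of the gene, with matches to the TEAD motif GGAATG on either strand in capitals.
Slco1c1, chr6:141524104-141524353, plus strand: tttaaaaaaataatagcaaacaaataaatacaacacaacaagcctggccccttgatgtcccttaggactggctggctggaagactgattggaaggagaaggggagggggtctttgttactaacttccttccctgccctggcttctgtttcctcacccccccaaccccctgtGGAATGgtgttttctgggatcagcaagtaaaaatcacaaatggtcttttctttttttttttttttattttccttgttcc
Slco2b1, chr7:99711341-99711590, minus strand: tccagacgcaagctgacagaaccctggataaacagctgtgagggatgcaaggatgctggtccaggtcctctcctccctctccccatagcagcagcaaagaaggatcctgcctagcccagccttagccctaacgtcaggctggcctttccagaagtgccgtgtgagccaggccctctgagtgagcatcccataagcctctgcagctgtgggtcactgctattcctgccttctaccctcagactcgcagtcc
Slco1a4, chr6:141856221-141856470, minus strand: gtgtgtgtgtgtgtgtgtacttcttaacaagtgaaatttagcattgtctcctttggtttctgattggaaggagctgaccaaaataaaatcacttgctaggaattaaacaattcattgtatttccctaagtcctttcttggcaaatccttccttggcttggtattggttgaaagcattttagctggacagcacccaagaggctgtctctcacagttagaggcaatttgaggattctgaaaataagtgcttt

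GGAATG lies once in the Slco1c1 window and in neither of the other 2 windows shown. Another 2 annotated starts of Slco2b1 have 1 match each in their upstream 250 bases. Among 99 such windows of 74 members, 11 held the motif (11.1%), against 12.6% of all 32851 windows. The amino acid response motif TGATGNAA, searched in the same way, was in 4 of the 99 windows (4.04%, against 3.45% of all), those of the tested members Slc7a7 and Slco2a1 among them. The upstream window of Slc38a5 held neither motif. A match is a description of letters and not a binding site.

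Slco1c1, known for carrying thyroxine across the blood-brain barrier, stood at 12748, 16305, 15266 and 12305 scaled reads in WT 1 to 4 and at 12086, 8829, 15014 and 10156 in YAPTAZ-ECKO 1 to 4. YAPTAZ-ECKO 3 lay within the WT range and the other 3 below it (log2 difference -0.31 ± 0.24, SE; interval -0.81 to 0.19; limma adjusted p = 0.981). Slco2b1, a carrier of steroid sulfates and many drugs, stood at 7809, 12170, 10241 and 14664 scaled reads in WT 1 to 4 and at 14746, 13419, 15533 and 14838 in YAPTAZ-ECKO 1 to 4. Of the YAPTAZ-ECKO libraries, 3 lay above all of WT and YAPTAZ-ECKO 2 lay below WT 4. The log2 difference was 0.41 ± 0.24 (SE; interval -0.085 to 0.91), with a limma adjusted p of 0.960 and a two-sided exact permutation p of 0.0571. Without WT 4 or without YAPTAZ-ECKO 2, its groups did not overlap, which follows by construction, since these libraries alone made the overlap. Exons of Slco2b1 overlap the antisense genes Gm15635 and Gm34280.

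Slco1a4, a carrier of bile acids and other organic anions on chromosome 6 from 141805440 to 141856199, minus strand (GRCm38), stood at 2663, 4188, 3096 and 3661 scaled reads in WT 1 to 4. In YAPTAZ-ECKO 1 to 4 it stood at 1584, 2125, 1223 and 3165. YAPTAZ-ECKO 4 lay within the WT range and the other 3 below it. The means were 3402 ± 664 in WT and 2024 ± 846 in YAPTAZ-ECKO (SD, n = 4 each), and the log2 difference was -0.78 ± 0.36 (SE; interval -1.52 to -0.035). The unadjusted limma p was 0.0407, the limma adjusted p 0.882 and the two-sided exact permutation p 0.0857. With a library left out, the unadjusted limma p ran from 0.0124 to 0.125. It was above 0.05 in 5 of 8 such fits, those without WT 2, WT 3, WT 4, YAPTAZ-ECKO 1 or YAPTAZ-ECKO 3. Slco1a4 has close relatives: 2.73% of the 50-base words of its longest transcript occur in Slco1a1, Slco1a5 or Slco1a6, so reads could be split between them. Slco1a5 stood at 281, 77.9 and 137 in WT 2 to 4 and at 6.91 in YAPTAZ-ECKO 4 alone, and Slco1a1 at 110, 38.1 and 98.5 in WT 2 to 4 and at 0 in all of YAPTAZ-ECKO. Slco1a6 was listed at 0 throughout. The means of all 3 Slco1a members above 0 were thus lower in YAPTAZ-ECKO, and Slco1a4 is the 1 of them that could be tested.

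Slco2a1, the prostaglandin carrier, on chromosome 9 from 102988712 to 103096002, plus strand (GRCm38), was the member without overlap between groups. It stood at 208, 307, 318 and 226 scaled reads in WT 1 to 4 and at 711, 324, 562 and 613 in YAPTAZ-ECKO 1 to 4. The closest values were 318 in WT 3 and 324 in YAPTAZ-ECKO 2. The means were 265 ± 55.8 in WT and 552 ± 165 in YAPTAZ-ECKO (SD, n = 4 each), and the log2 difference was 0.77 ± 0.53 (SE; interval -0.31 to 1.85). The limma adjusted p was 0.981. The two-sided exact permutation p of 0.0286 is the smallest that 4 against 4 libraries can give. Any gene whose groups do not overlap gets this value, so it adds nothing to the lack of overlap. With upper quartile scaling its groups overlapped. Exons of Slco2a1 overlap the gene n-R5s89 on the other strand. Slco3a1 was listed at 0 in YAPTAZ-ECKO 1, 3 and 4 and stood at 703 in YAPTAZ-ECKO 2, against 50.3 to 222 in WT, and Slco5a1 ranged from 17.3 to 210 in WT and from 0 to 311 in YAPTAZ-ECKO. Slco1b2, a liver carrier by textbook, was above 0 in WT 2 (252) and YAPTAZ-ECKO 1 (470) alone. Slco4a1 was above 0 in WT 1 and WT 3 alone, at 21.6 and 62.6.

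**Figure D4:**
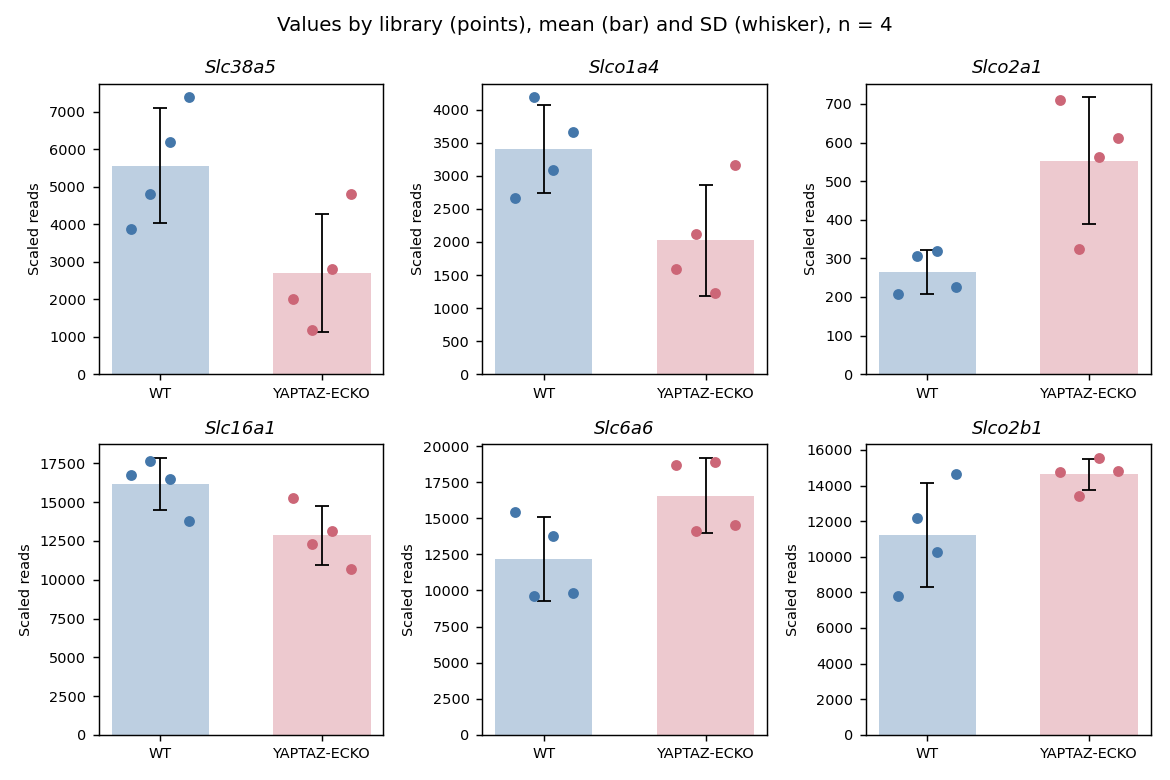
Scaled reads of 6 members in each library (points), with the group mean (bar, from 0) and SD (whisker), n = 4 per group. Slco2a1 alone shows no overlap, with a gap from 318 to 324; for Slc38a5, Slco1a4 and Slc16a1 the YAPTAZ-ECKO mean is lower and for Slc6a6 and Slco2b1 it is higher, each with overlapping points.

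Genes that serve these carriers were examined as 4 lists, and none of their tested members passed over all genes. Over all genes tested, 56.9% had lower values, 5.47% had an unadjusted p under 0.05 and 3.40% had groups without overlap. Of 9 tested genes for chaperones and trafficking, 4 had higher and 5 had lower values in YAPTAZ-ECKO (median -0.12). Bsg, which encodes the chaperone basigin that MCT1 needs to reach the membrane, stood at 68617 ± 16068 scaled reads in WT and 62772 ± 12194 in YAPTAZ-ECKO (SD, n = 4 each; interval -0.51 to 0.27). Its relative Nptn stood at 724 ± 388 and 1351 ± 1268 (SD, n = 4 each), and Emb was above 0 in YAPTAZ-ECKO 4 alone, at 193. Gipc1, a scaffold that binds Slc2a1, was the 1 of the 9 with an unadjusted p under 0.05 and had an unadjusted limma p of 0.0348 (631, 1138, 496 and 1461 in WT 1 to 4 and 38.5, 23.0, 745 and 792 in YAPTAZ-ECKO 1 to 4; limma adjusted p = 0.882).

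Of 10 tested genes of the amino acid response, the program run by Atf4 when amino acids are short, 5 had higher and 5 had lower values (median -0.091). Those with an unadjusted p under 0.05 were Ddit4, an inhibitor of mTORC1, and Aldh18a1, an enzyme of proline synthesis, or 2 of 10 against 5.47% of all genes tested. Ddit4 stood at 1934, 1063, 1559 and 1260 scaled reads in WT 1 to 4 and at 4176, 2982, 2171 and 1985 in YAPTAZ-ECKO 1 to 4, all above WT (log2 difference 0.88 ± 0.37, SE; limma adjusted p = 0.872). Aldh18a1 stood at 0 to 40.2 in WT and 52.2 to 248 in YAPTAZ-ECKO (log2 interval 0.12 to 1.89; limma adjusted p = 0.872). Of 25 tested genes of amino acid sensing by mTORC1, 15 had higher and 10 had lower values (median 0.072). Rheb, the GTPase that activates mTORC1, stood at 364 to 648 scaled reads in WT and 71.4 to 283 in YAPTAZ-ECKO, without overlap (-1.22 ± 0.56, SE; limma adjusted p = 0.882), and was the 1 of the 25 with an unadjusted p under 0.05. Of the 9 genes for thyroid hormone handling, 5 were at 0 throughout, among them the deiodinases Dio1, Dio2 and Dio3. The 3 tested were Thra, Ttr and Klf9, of which 1 had higher and 2 had lower values (median -0.51).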

How the data were processed

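RNA of flow-sorted brain endothelial cells was profiled in 8 libraries with a Lexogen Quant-Seq kit, per the labels' protocols. Bowtie2, edgeR and the mm10 build were used, per the submitters' processing notes; the counting tool, annotation and strand setting remain not given in the sources used here. Each library's table, as deposited by the authors, holds a log2 value per gene symbol. Values were returned to the linear scale with 0 kept at 0. Low values lay within 0.1 of whole multiples of a library's step for 89.8% to 100% of values under 12, so they were read as scaled counts, and total over step gave the implied depth. The 24394 symbols listed once in all 8 tables were used.

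Genes reaching 10 scaled reads in 4 or more libraries were tested with limma 3.58.1 (R 4.3.3; trended, robust) on log2(scaled reads + 128) without covariates, and Benjamini-Hochberg adjustment over all 8706 genes. Because values are log2 and not counts, count tests (2 planned) were not run. Single genes were also compared by exact permutation of linear values (70 assignments, two-sided, unadjusted, computed for the 63 members above 0). The fit was also run on simulated data with known changes, and it missed many of them. Symbols were placed on GRCm38 with GENCODE M21, which matched all 101 members, and levels per kb use the longest transcript. Same-numbered WT and YAPTAZ-ECKO libraries did not deviate together, so replicate numbers were not treated as pairs. The members and lists were chosen with earlier results of these data known. Genes named were textbook carriers of brain endothelium, the 3 most abundant members per family, members with an unadjusted p under 0.05 or no overlap, and members that reached 100 scaled reads but were listed at 0 in at least 2 libraries; other members named were chosen after their values were seen. Alternatives covered the pseudocount, filter, scaling, voom on rebuilt reads, a replicate block and each library left out. Counts and sums cover all members, but the values of 2 members above 0 are not reported here.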

Additional observations from a re-analysis of the deposited data

Results flagged for a closer look

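A library was singled out where the gap from the highest or lowest value to the nearest other, within a group of 4, took up more of the group's range than Dixon's 95% critical value. Of 108 groups of values checked, 20 had such a library. In 15 of them the other 3 libraries were all listed at 0, which meets the criterion by construction. For the other 5, chance gives about 1 in 20 only where values are normally distributed. Many of the 108 groups hold values at 0, so the 5 cannot be set against that rate. In YAPTAZ-ECKO the groups with all others at 0 were Slc16a10 (150 scaled reads, YAPTAZ-ECKO 2), Slc16a4 (325, YAPTAZ-ECKO 4), Slc1a3 (46.0, YAPTAZ-ECKO 3), Slc6a11 (72.4, YAPTAZ-ECKO 4), Slc7a2 (327, YAPTAZ-ECKO 2), Slco1a5 (6.91, YAPTAZ-ECKO 4), Slco1b2 (470, YAPTAZ-ECKO 1) and Slco3a1 (703, YAPTAZ-ECKO 2). In WT they were Slc16a11 (50.5, WT 1), Slc2a12 (193, WT 1), Slc38a7 (1.19, WT 1), Slc3a1 (60.1, WT 3), Slc6a17 (170, WT 4), Slc7a2 (143, WT 2) and Slco1b2 (252, WT 2).

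In the remaining groups the others were not all at 0. Slc43a1 stood at 1126 in YAPTAZ-ECKO 1 against 0 to 16.1 in the other 3, Slc16a11 at 162 in YAPTAZ-ECKO 3 against 0 to 21.3, Slc2a10 at 205 in YAPTAZ-ECKO 3 against 0 to 30.1, and Slc1a5 at 297 in WT 1 against 0 to 23.4. Of the abundant members only Slc2a1 was singled out, at 5293 in YAPTAZ-ECKO 1 against 4297 to 4454 in the other YAPTAZ-ECKO libraries. That value lies within the WT range.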

How the results depend on the processing

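No member passed an adjusted p of 0.05 under any of the 20 alternatives run (0 with each library left out in turn, and 0 with the replicate block), and the smallest adjusted p among the 33 members followed was 0.370. The number of members with an unadjusted p under 0.05 was 2, and 4 with voom and 3 with the replicate block. With every gene kept it was 6 of the 63 members then tested. With a library left out it was 1 to 5 (1 without WT 2, 5 without WT 4, 4 without YAPTAZ-ECKO 4). The number without overlap was 1, and 0 with upper quartile scaling. With a library left out it was 1 to 5 (2 without WT 1, YAPTAZ-ECKO 1 or YAPTAZ-ECKO 3, 3 without YAPTAZ-ECKO 2, 4 without YAPTAZ-ECKO 4, 5 without WT 4). A smaller group also fails to overlap more often by chance. The shares over all genes under these alternatives are not given here, so these counts have no background to be read against. With the stricter filter 38 members count as detected in place of 63. Of 638 comparisons of a member with an alternative, 595 kept the sign and 43 did not, and 21 of the 33 members kept it throughout. Slc38a10 moved from -0.0068 to 0.010 with library totals, 0.024 with median ratio scaling and 0.017 with totals without Rn45s (added after seeing the data). Slc43a3 moved from -0.021 to 0.030 with a pseudocount of 1, 0.020 with 16, 0.0305 on log2 values as deposited, 0.0045 with median ratio scaling, 0.030 with voom and 0.0010 with totals without Rn45s. Slc7a6 moved from 0.27 to -0.54, -0.52 and -0.41 with a pseudocount of 1, the deposited values and voom, Slc38a3 from 0.024 to -0.025 with voom, and Slco3a1 from -0.19 to 0.031 with a pseudocount of 512. With a library left out, the ranges that crossed 0 were -0.26 to 0.62 for Slc16a6, -0.27 to 0.54 for Slc1a1, -0.033 to 0.18 for Slc2a1, -0.20 to 0.11 for Slc38a10, -0.28 to 0.25 for Slc38a3, -0.20 to 0.044 for Slc3a2, -0.17 to 0.35 for Slc43a2, -0.33 to 0.29 for Slc43a3, -0.29 to 1.06 for Slc6a8, -0.042 to 0.51 for Slc7a6, -0.031 to 0.19 for Slc7a8 and -0.86 to 0.037 for Slco3a1; the cause was not tested. The count tests planned for whole reads were not run. Same-numbered libraries correlated at -0.043 to 0.076 in their deviations from the group means, so the replicate block shares only a number. With 4 libraries a group and a median half-width of 0.82 log2 units before adjustment, smaller differences were mostly not resolvable. Larger differences could also fail after adjustment over all genes. Yap1 at -2.39 had a limma adjusted p of 0.175, and Slc38a5 at -1.14 had a limma adjusted p of 0.675.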
